A study of Homo sapiens with 6 samples.

Results

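The genes described here are 42 genes of the amino acid arm of the cellular stress response, taken from the 56638 gene symbols in the count files. They are transcription factors of the ATF4 programme, target genes of ATF4, enzymes and transporters that supply amino acids, and enzymes that charge tRNAs. They were chosen by name from a list of known pathway members, with no measured value in the rule, but with earlier results of these data known. All 42 had enough reads to be tested. RNA sequencing libraries were made from total RNA of 6 samples of colorectal cancer cells, with 3 titled control siRNA, from cells given a nonspecific siRNA, and 3 titled lncRNA-AF339830 siRNA, from cells given an siRNA against the long noncoding RNA AF339830, which the paper calls GLCC1. The study compared the conditions to ask what silencing of GLCC1 does to gene expression. The cells were grown in RPMI-1640 with 10% serum. The cell line is SW480 according to the labels and DLD-1 according to the methods, both of them established colorectal cancer lines, and the files were not used to tell them apart. The genotype field of every library ends in siRNA1, so 1 siRNA sequence may stand behind all 3 GLCC1 siRNA libraries.

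The library names in the description field attach each group to the other siRNA, whereas titles, source names and genotypes are as used here. If the library names held, every rise given below would be a fall and every fall a rise. GLCC1 itself was not analysed here, so the depth of the knockdown is not given. Between 11948790 and 19042516 counts per library fell on genes, and GLCC1 siRNA replicate 2 was the smallest library. Of counts on genes or on no gene, 12.3% to 12.7% had no gene in the control libraries and 13.7% to 15.5% in the GLCC1 siRNA libraries, with replicate 2 at the top. This replicate was also the one farthest from the median of its group for 23 of the 42 genes, as was control replicate 2 in its group for 21. No label says that the 3 replicates of a condition were separate cultures, so each p-value measures only the spread between these libraries.

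ATF4 is a transcription factor that is made when the translation initiation factor eIF2 is phosphorylated, for example when a cell lacks amino acids. Its mRNA carries short upstream reading frames, so that translation of ATF4 rises while that of most mRNAs falls. ATF4 pairs with C/EBP proteins at composite C/EBP-ATF response elements and switches on genes for amino acid uptake, amino acid synthesis, one-carbon metabolism and aminoacyl-tRNA synthetases. ATF4 mRNA and ATF4 protein are therefore different quantities, and only mRNA was measured here.

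The programme did not move as one block. Of the 42 genes, 13 rose, 11 fell and 18 were not called in the GLCC1 siRNA libraries (edgeR quasi-likelihood test, adjusted p under 0.05 over 23074 genes), against a background of 14.9% of all tested genes that rose and 16.7% that fell. The members that rose were 31.0% of the list and those that fell 26.2%. Well expressed genes were called more often, so for the 10378 genes that averaged 10 CPM or more (counts scaled to library size with TMM factors) the background was 20.1% risen and 29.8% fallen. At that level 34 members remained, of which 12 rose, or 35.3%, and 8 fell, or 23.5%. The median log2 fold change was 0.07 over the members and 0.03 over all tested genes. At 10 CPM or more it was 0.09 over the members and -0.07 over all genes. Both medians moved with the setting. Members and all tested genes had -0.03 and -0.003 without GLCC1 siRNA replicate 3, and 0.03 and 0.04 without control replicate 1. They had 0.05 and 0.02 without GLCC1 siRNA replicate 2, and 0.13 and -0.0006 without GLCC1 siRNA replicate 1. With library totals as the only scaling they had 0.19 and 0.15. Every GLCC1 siRNA library was above every control library for 16 of the 42 members and below for 13, where 22.3% and 24% of all tested genes did so. This background was not computed for genes at 10 CPM or more. Changes were mostly small: NUPR1 and TRIB3 rose and VLDLR and ALDH1L2 fell by a factor of at least 2. The share of all counts that lay on members was 0.615% to 0.631% in the controls and 0.673% to 0.714% after GLCC1 siRNA, whereas their summed TMM-scaled level, 6429 to 6638 CPM against 6451 to 6907 CPM, overlapped.

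**Figure D1:**
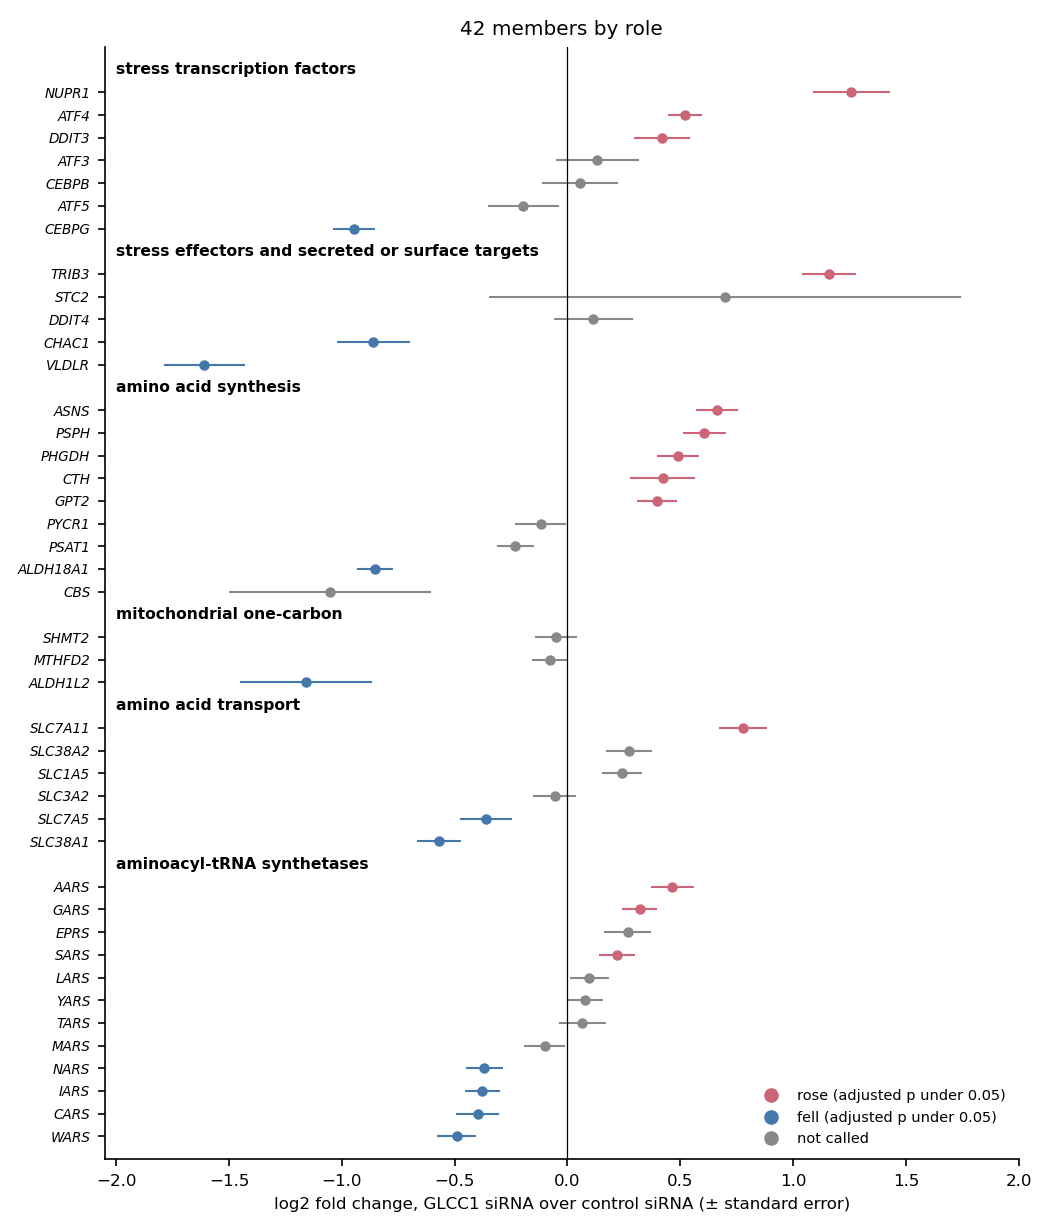
Log2 fold change of GLCC1 siRNA over control siRNA for each of the 42 genes, grouped by role, with bars of 1 standard error from edgeR and colours for the call at an adjusted p under 0.05. Rises and falls stand side by side in each role except mitochondrial one-carbon metabolism, which held 1 fall and no rise.

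Promoter windows were searched to see how many of these genes share a short word. Each window ran from 250 bases before to 50 bases after the annotated start of the gene. The word was TGATGNAA, a shortened form of the C/EBP-ATF response element, on both strands. RefSeq promoters (GRCh38.p14) were matched for 33 of the 42 members. The word was in 11 of these 33 windows, or 33.3%, and in 1270 of all 35116 windows, or 3.62%. Since the members were listed by role around the ATF4 programme, with target genes of ATF4 among them, this share describes the list and is no test of it. The windows of the 7 members with the word that were called, and of MARS and TARS, which carry it at their start and were not called, are shown because the same letters stood beside rises, falls and no call. Each is written 5′ to 3′ along the gene, with the word in capitals and the GRCh38.p14 position and gene strand after the symbol.
ASNS, chr7:97872449-97872496, minus: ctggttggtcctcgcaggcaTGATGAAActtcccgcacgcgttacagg
AARS, chr16:70289666-70289713, minus: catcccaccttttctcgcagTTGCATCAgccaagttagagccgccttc
CHAC1, chr15:40953242-40953289, plus: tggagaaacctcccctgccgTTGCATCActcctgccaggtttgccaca
SLC38A1, chr12:46266493-46266540, minus: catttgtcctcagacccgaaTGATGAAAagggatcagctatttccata
CARS, chr11:3057398-3057445, minus: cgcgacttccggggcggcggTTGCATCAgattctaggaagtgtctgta
IARS, chr9:92293683-92293730, minus: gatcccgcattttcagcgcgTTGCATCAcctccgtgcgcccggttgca
NARS, chr18:57621795-57621842, minus: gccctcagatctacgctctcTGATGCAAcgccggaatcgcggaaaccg
MARS, chr12:57488044-57488091, plus: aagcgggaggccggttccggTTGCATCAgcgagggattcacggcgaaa
TARS, chr5:33440947-33440994, plus: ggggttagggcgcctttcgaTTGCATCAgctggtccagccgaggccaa

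CHAC1, AARS, CARS, IARS, MARS and TARS held the same 8 letters, TTGCATCA, and NARS held their reverse complement, TGATGCAA. Of these 7 genes, AARS rose, CHAC1, CARS, IARS and NARS fell, and MARS and TARS were not called. ATF3 and SLC3A2 also held the word and were not called. The word was thus present in 2 of 9 matched members that rose, 5 of 10 that fell and 4 of 14 that were not called. NUPR1, PSPH, GPT2 and SLC7A11, which rose, and ALDH1L2, which fell, had no matched promoter, so the shares by call are unequally complete. Absence of the word holds for this window and this spelling only. In ASNS, AARS, ATF3 and CHAC1 it began 68 to 209 bases before the start, and in SLC38A1, CARS, IARS, MARS, NARS and TARS it lay within 14 bases of the start. A match describes letters only, and binding of ATF4 was not measured.

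**Figure D2:**
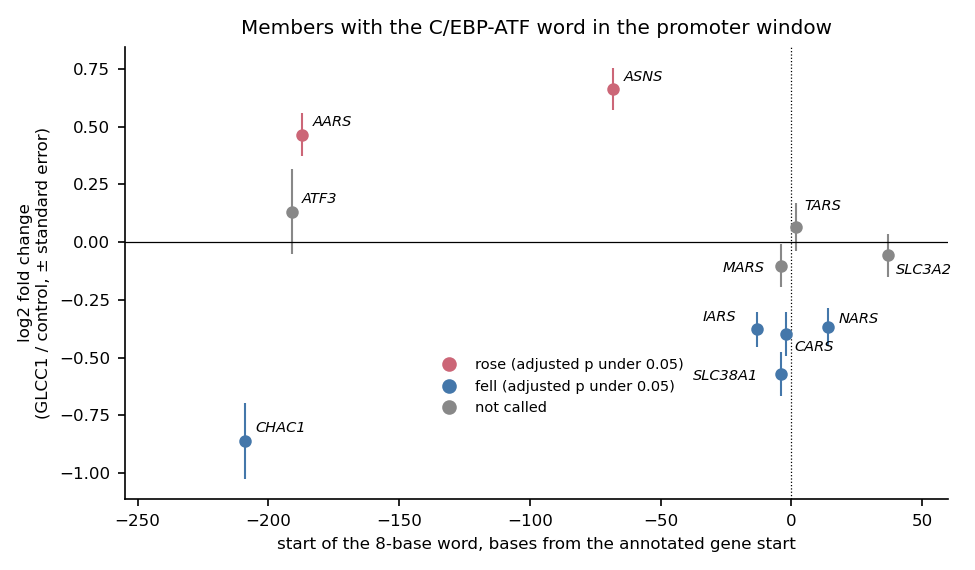
Position of the 8-base word in bases from the annotated gene start (x axis) against the log2 fold change of GLCC1 siRNA over control siRNA (y axis) for the 11 members that held it, with bars of 1 standard error. ASNS and AARS, which rose, and ATF3 and TARS, which were not called, lie above 0. The other points lie below 0, with CHAC1 and SLC38A1 lowest.

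The transcription factors were led by ATF4 itself, the master regulator of the programme, on chromosome 22 (hg19 chr22:39915700-39918688, plus strand). ATF4 was at 322, 311 and 331 CPM in the control libraries and 446, 458 and 478 CPM in the GLCC1 siRNA libraries. The lowest GLCC1 siRNA library was above the highest control library, and the log2 fold change was 0.52 ± 0.07 (standard error, edgeR, adjusted p = 1.31e-04, n = 3 and 3). Its call stayed under every alternative, with log2 fold changes from 0.49 to 0.55 when a library was left out.

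CEBPG, the gene of a C/EBP protein that dimerizes with ATF4 at response elements, moved the other way. Its control libraries had 111, 114 and 113 CPM and its GLCC1 siRNA libraries 52.5, 64.7 and 58.4 CPM. CEBPG was thus at 51.9% of control (log2 fold change -0.95 ± 0.09 SE, edgeR adjusted p = 5.79e-06). NUPR1, a small chromatin protein induced by stress, was low at 4.53, 3.42 and 3.25 CPM in the controls and rose to 10.1, 8.11 and 8.28 CPM. This was the largest rise among the members (log2 fold change 1.26 ± 0.17 SE, edgeR adjusted p = 8.23e-05).

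DDIT3, which encodes the death-promoting factor CHOP, had 23.8, 30.6 and 26.7 CPM in the controls and 34.4, 32.4 and 41.7 CPM after GLCC1 siRNA. The groups did not overlap, but the gap between 30.6 and 32.4 CPM was narrow beside the spread within each group. The log2 fold change of DDIT3 was 0.42 ± 0.12 (SE, edgeR adjusted p = 0.0186), and the call was lost without control replicate 1 (adjusted p = 0.105), control replicate 3 (0.0788) or GLCC1 siRNA replicate 3 (0.0836). The end of DDIT3 faces that of MARS on the opposite strand of hg19 chromosome 12, and they share 355 exon bases, 27.2% of the exon bases of DDIT3. The library kit keeps no strand, so reads of these bases cannot be given to 1 of the genes, and MARS was not called.

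ATF3, a stress-induced partner of the family, had 7.47, 10.0 and 10.8 CPM in the controls and 7.77, 11.3 and 12.3 CPM after GLCC1 siRNA, and the groups overlapped. The difference of ATF3, 0.13 ± 0.18 (SE, log2), had an edgeR adjusted p of 0.622. Neither ATF5, a relative of ATF4 (log2 fold change -0.20, adjusted p = 0.373), nor CEBPB, another C/EBP partner (0.05, adjusted p = 0.837), was called. CEBPB was at 23.7 and 23.8 CPM in GLCC1 siRNA replicates 1 and 2 and at 39.1 CPM in replicate 3. The summed level of the 7 factors was 503 to 517 CPM in the controls and 579 to 643 CPM after GLCC1 siRNA, most of it from ATF4.

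The stress effectors split more widely. TRIB3, a pseudokinase that binds ATF4 and dampens it, had 50.9, 62.3 and 59.7 CPM in the controls and 126, 109 and 151 CPM after GLCC1 siRNA. All 3 GLCC1 siRNA libraries were far above the controls, at 2.24 times their level (log2 fold change 1.16 ± 0.12 SE, edgeR adjusted p = 8.64e-06). CHAC1, an enzyme that breaks down glutathione and is used as a marker of ATF4 activity, had 9.46, 9.59 and 12.3 CPM in the controls and 5.27, 5.01 and 6.88 CPM after GLCC1 siRNA. It fell in every library, to 55.1% of control (log2 fold change -0.86 ± 0.16 SE, edgeR adjusted p = 0.00118).

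VLDLR, a lipoprotein receptor, had the largest fall of the list. It was at 5.69, 6.72 and 6.08 CPM in the controls and at 2.14, 2.23 and 1.73 CPM after GLCC1 siRNA, which is 32.8% of control (log2 fold change -1.61 ± 0.18 SE, edgeR adjusted p = 1.61e-05). DDIT4, an inhibitor of mTORC1 signalling, was not called (log2 fold change 0.11, edgeR adjusted p = 0.662), and its GLCC1 siRNA libraries ran from 83.8 CPM in replicate 2 to 154 CPM in replicate 3, on both sides of the controls at 100 to 135 CPM. STC2, which encodes a secreted glycoprotein, was close to 0 in all libraries, at 0.26 CPM or less, and could not be compared at this depth.

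**Figure D3:**
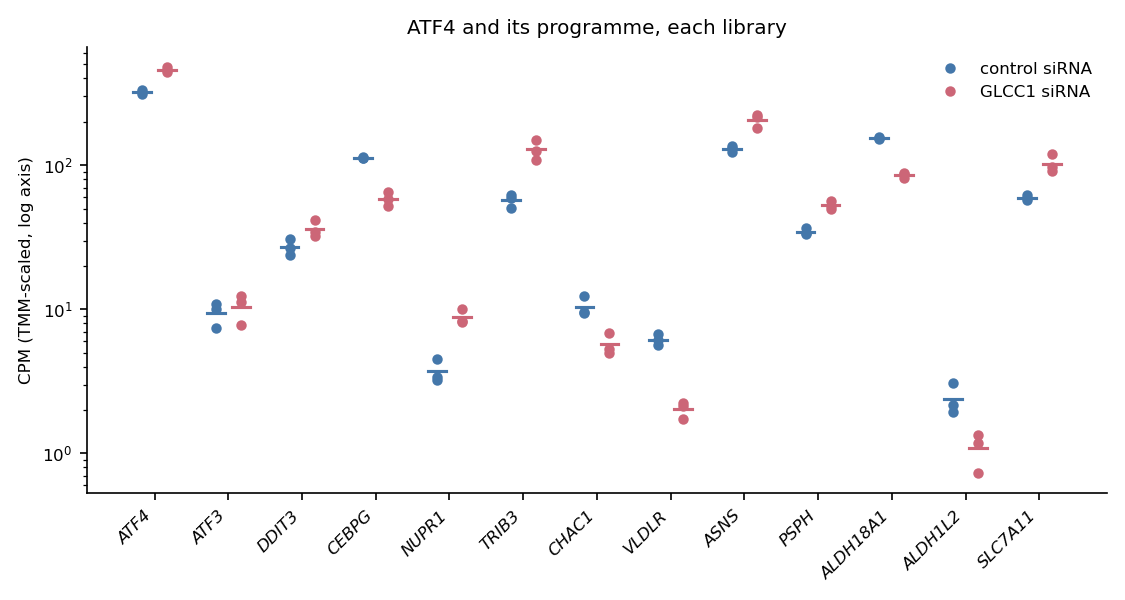
TMM-scaled CPM on a log axis for 13 genes in each of the 6 libraries, where points are libraries and short lines are group means. ATF4, NUPR1, TRIB3, ASNS, PSPH and SLC7A11 are higher in all 3 GLCC1 siRNA libraries, CEBPG, CHAC1, VLDLR, ALDH18A1 and ALDH1L2 are lower in all 3, ATF3 overlaps, and DDIT3 is separated by a narrow gap.

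Amino acid synthesis was the role with the largest share of rises. Of its 9 genes 5 rose, or 55.6%, and 1 fell, or 11.1%, with a median log2 fold change of 0.40. The background was 14.9% and 16.7% over all tested genes, and 20.1% and 29.8% at 10 CPM or more. With the replicate block 4 of the 9 rose and 1 fell. ASNS, asparagine synthetase, had 123, 132 and 137 CPM in the controls and 182, 222 and 216 CPM after GLCC1 siRNA. It stood at 1.58 times the control level with no overlap (log2 fold change 0.66 ± 0.09 SE, edgeR adjusted p = 1.11e-04). PSPH, the last enzyme of serine synthesis, had 36.7, 33.5 and 33.8 CPM in the controls and 49.5, 56.5 and 52.4 CPM after GLCC1 siRNA (log2 fold change 0.61 ± 0.09 SE, edgeR adjusted p = 2.49e-04). A pseudogene, PSPHP1, took 11.3% of the counts of both together, so the division of reads between PSPH and its copy is uncertain.

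The serine pathway did not rise along its length. PHGDH, its first enzyme, rose (log2 fold change 0.49, edgeR adjusted p = 0.00116) and PSPH rose, while PSAT1, the transaminase between them, was lower in all 3 GLCC1 siRNA libraries, at 108 to 120 CPM against 128 to 139 CPM. The log2 fold change of PSAT1 was -0.23 ± 0.08 SE and just missed the threshold (edgeR adjusted p = 0.0502). It was called without GLCC1 siRNA replicate 2 (adjusted p = 2.31e-04).

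ALDH18A1, which opens proline synthesis from glutamate, had 152, 157 and 154 CPM in the controls and 86.5, 81.8 and 87.7 CPM after GLCC1 siRNA. It fell to 55.4% of control, with the lowest adjusted p among the members (log2 fold change -0.85 ± 0.08 SE, edgeR adjusted p = 3.34e-06). PYCR1, which closes the proline pathway, was not called (log2 fold change -0.12, adjusted p = 0.466). GPT2, the mitochondrial alanine aminotransferase, rose by 0.40 (edgeR adjusted p = 0.00389). CTH, which makes cysteine from cystathionine, rose by 0.42 (adjusted p = 0.0386), a call that was lost without control replicate 2 (0.194), control replicate 3 (0.0796) or GLCC1 siRNA replicate 1 (0.0774). CBS, the enzyme before CTH, had a mean of 0.84 CPM in the controls and 0.38 CPM after GLCC1 siRNA and was not called (adjusted p = 0.093).

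In mitochondrial one-carbon metabolism, the most abundant enzymes differed by less than their error. SHMT2, which takes the one-carbon unit from serine, had 479 ± 14.4 CPM (SD, n = 3) in the controls and 462 ± 59.4 CPM after GLCC1 siRNA. MTHFD2, which oxidizes that unit, had 158 ± 5.13 and 150 ± 6.78 CPM. Neither was called (edgeR adjusted p = 0.723 and 0.495). ALDH1L2, which releases the unit as carbon dioxide while making NADPH, had 3.09, 1.93 and 2.17 CPM in the controls and 0.73, 1.35 and 1.18 CPM after GLCC1 siRNA. The fall of ALDH1L2 was large on a low level (log2 fold change -1.16 ± 0.29 SE, edgeR adjusted p = 0.00824), and it missed the threshold without control replicate 1 (adjusted p = 0.0521).

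The transporters held opposite changes among genes that work together. SLC7A11, the light chain of the cystine-glutamate antiporter, had 62.4, 57.7 and 58.9 CPM in the controls and 96.5, 120 and 91.0 CPM after GLCC1 siRNA. It rose in every library to 1.71 times control (log2 fold change 0.78 ± 0.11 SE, edgeR adjusted p = 9.24e-05). SLC7A5, the light chain of the large neutral amino acid exchanger, fell to 77.8% of control (log2 fold change -0.36 ± 0.12 SE, edgeR adjusted p = 0.0285). GLCC1 siRNA replicate 2 of SLC7A5 stood apart at 314 CPM beside 438 and 448 CPM. Without this library the log2 fold change was -0.21 and the call stayed (edgeR adjusted p = 7.8e-04). The call was lost without control replicate 1 (adjusted p = 0.0595), 2 (0.114) or 3 (0.0867). It was also lost with library totals as the only scaling (log2 fold change -0.24, adjusted p = 0.118). SLC3A2, the heavy chain that both light chains bind, was not called (log2 fold change -0.06, adjusted p = 0.684).

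SLC38A1, a sodium-coupled transporter of glutamine, fell from 353 to 401 CPM in the controls to 238 to 297 CPM (log2 fold change -0.57 ± 0.10 SE, edgeR adjusted p = 5.2e-04). SLC38A2, its relative with the classic amino acid response, and SLC1A5, an exchanger of glutamine and other neutral amino acids, had values in the other direction. All 3 GLCC1 siRNA libraries were above the controls for both genes, with log2 fold changes of 0.27 (adjusted p = 0.0598) and 0.24 (adjusted p = 0.0505), just short of the threshold. SLC1A5 passed it under 6 of 12 alternatives and SLC38A2 under 7. SLC38A2 was at 355 CPM in GLCC1 siRNA replicate 2 beside 271 and 274 CPM. Without this library its log2 fold change was smaller, at 0.14, but it was called (edgeR adjusted p = 0.0261). The summed level of the 6 transporters was lower in every GLCC1 siRNA library, 1475 to 1539 CPM against 1615 to 1661 CPM.

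Aminoacyl-tRNA synthetases attach each amino acid to its tRNA, and cytosolic ones are classic ATF4 targets. Here 3 of 12 rose, or 25.0%, 4 fell, or 33.3%, and 5 were not called, shares close to the background of 20.1% and 29.8% at 10 CPM or more. The summed level did not separate the conditions, at 2694 to 2837 CPM in the controls and 2632 to 2897 CPM after GLCC1 siRNA. AARS, for alanine, rose most, from 170, 188 and 186 CPM to 242, 226 and 282 CPM (log2 fold change 0.47 ± 0.09 SE, edgeR adjusted p = 0.00175). GARS, for glycine, rose by 0.32 (adjusted p = 0.00629) and SARS, for serine, by 0.22 (adjusted p = 0.0491). The call of SARS was lost without any 1 library but GLCC1 siRNA replicate 2, with adjusted p up to 0.191.

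WARS, for tryptophan, fell most, from 134, 141 and 142 CPM to 101, 90.2 and 105 CPM (log2 fold change -0.49 ± 0.09 SE, edgeR adjusted p = 6.6e-04). CARS, for cysteine, fell by 0.40 (adjusted p = 0.00572), IARS, for isoleucine, fell by 0.38 (adjusted p = 0.00169) and NARS, for asparagine, fell by 0.37 (adjusted p = 0.00365). All 4 falls kept their call when any 1 library was left out. EPRS, which carries the glutamate and proline enzymes in 1 chain, had a log2 fold change of 0.27 (adjusted p = 0.065), and without GLCC1 siRNA replicate 2, at 481 CPM beside 371 and 379 CPM, it was 0.14 (adjusted p = 0.0316). LARS, MARS, TARS and YARS, for leucine, methionine, threonine and tyrosine, lay between -0.10 and 0.10 and were not called.

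Ratios within a library need no scaling between libraries, and 8 were computed, for pairs chosen after the values were seen. TRIB3 over CHAC1, both effectors under ATF4, had a log2 ratio of counts of 2.43, 2.70 and 2.28 in the controls and 4.58, 4.44 and 4.45 after GLCC1 siRNA, a difference of 2.03. ATF4 over CEBPG, a factor over its partner, differed by 1.47, with 1.51 ± 0.05 (SD, n = 3) against 2.98 ± 0.14. ASNS over ALDH18A1 differed by 1.51, SLC7A11 over SLC7A5 by 1.15, AARS over WARS by 0.95, PSPH over PSAT1 by 0.84 and SLC7A11 over SLC3A2 by 0.84. Since the pairs were chosen from members that had moved apart, these differences are a description with no test. SHMT2 over MTHFD2 differed by 0.02, with overlap between the conditions.

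**Figure D4:**
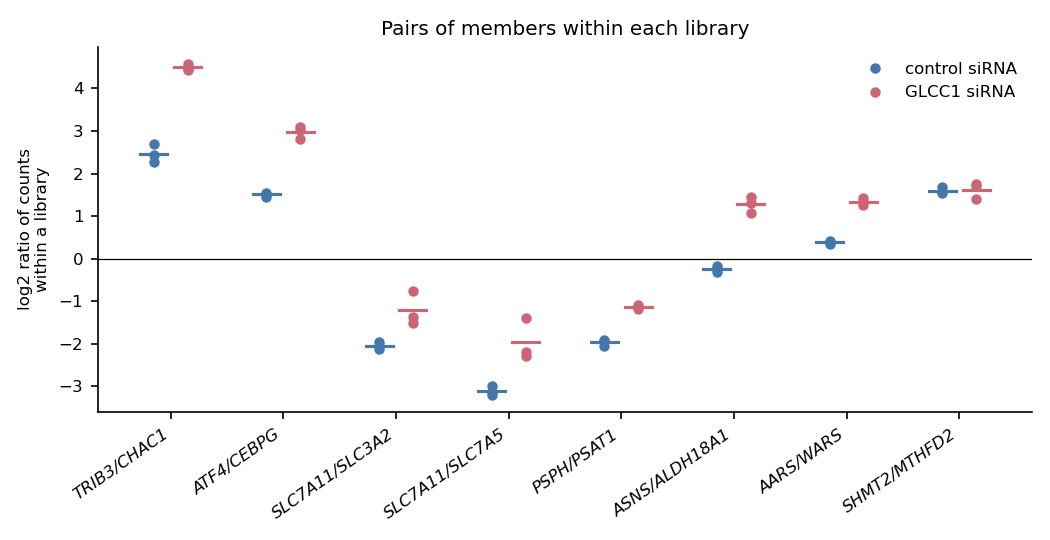
Log2 ratio of the counts of a pair of members within each library, where points are libraries and short lines are group means. The ratio is higher in all 3 GLCC1 siRNA libraries for 7 pairs and overlaps for SHMT2/MTHFD2.

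Upstream of ATF4, the genes of eIF2, its kinases and its regulators gave 1 rise and 8 falls of 16, with a median log2 fold change of -0.23. These are shares of 6.25% and 50% beside the background of 20.1% and 29.8% at 10 CPM or more, and with library totals as the only scaling 2 rose and 6 fell. The largest fall was that of EIF2B2, a subunit of the exchange factor that reloads eIF2 with GTP, from 35.5 ± 0.94 CPM (SD, n = 3) to 11.5 ± 1.34 CPM (log2 fold change -1.62, edgeR adjusted p = 2.84e-07). EIF2S1, the eIF2 subunit that is phosphorylated under stress, fell from 246 ± 14.9 to 127 ± 10.8 CPM (log2 fold change -0.96, edgeR adjusted p = 3.28e-06). The gene that rose was EIF2AK2, the kinase PKR that senses double-stranded RNA, from 398 ± 12.3 to 660 ± 96.2 CPM (log2 fold change 0.73, edgeR adjusted p = 8.43e-05). The kinase genes for amino acid shortage and for stress of the endoplasmic reticulum, EIF2AK4 and EIF2AK3, were not called (log2 fold changes 0.01 and -0.17). The remaining kinase gene, EIF2AK1, was also not called (0.14). The regulator genes GCN1L1 and IMPACT fell (-0.51 and -0.63, edgeR adjusted p = 6.92e-04 and 4.7e-04). EIF2AK1, EIF2AK3, EIF2AK4, GCN1L1 and IMPACT are named here although they are outside the rule for named genes. Phosphorylation of eIF2 was not measured.

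Among other known ATF4 targets, 14 of 16 could be tested, of which 7 rose and 1 fell, with a median log2 fold change of 0.44. These are shares of 50% and 7.14%. The background was 14.9% and 16.7% over all tested genes, and 20.1% and 29.8% at 10 CPM or more. With library totals as the only scaling 7 rose and 1 fell, and with DESeq2 6 rose and 2 fell. SESN2, a leucine sensor that restrains mTORC1, rose by 1.13 (edgeR adjusted p = 6.63e-06) and JDP2, a partner of AP-1 factors, by 0.87 (adjusted p = 1.79e-05). XPOT, the exporter of tRNA from the nucleus, fell by 0.72 (adjusted p = 4.69e-05). Genes of the ATF6 and XBP1 arms of the endoplasmic reticulum stress response moved little. None rose and 2 of 13 fell, PDIA4 by 0.59 and SEC61B by 0.50, although 4 rose and 2 fell when library totals were the only scaling. The share that fell was 15.4%, beside the background of 29.8% at 10 CPM or more.

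For the next 4 lists the background was 14.9% risen and 16.7% fallen over all tested genes, and 20.1% and 29.8% at 10 CPM or more. Of 11 further cytosolic synthetases and complex scaffolds, none rose and 4 fell, or 36.4%, led by FARSA (log2 fold change -0.40) and QARS (-0.34). With library totals as the only scaling none of them fell and 2 rose. Of 17 mitochondrial synthetases, none rose and 4 fell, or 23.5%, led by WARS2 (-0.52) and HARS2 (-0.48). With library totals only 3 of these synthetases fell and 1 rose. Other enzymes of amino acids and folate gave 3 rises and 6 falls of 18, or 16.7% and 33.3%. SHMT1 (0.42) and MTHFD2L (0.53) were the largest rises at 10 CPM or more and GLUD1 (-1.04) and ASS1 (-0.95) the largest falls. With library totals only this list gave 4 rises and 4 falls, and its median went from -0.0046 to 0.1169. Other amino acid transporters gave 5 rises and 3 falls of 16 tested, or 31.25% and 18.75%, from SLC7A8 (1.14) and SLC7A2 (0.89) to SLC7A7 (-0.80) and SLC36A4 (-1.40). They gave 6 rises and 3 falls with library totals only, where the median went from -0.0436 to 0.0787.

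**Figure D5:**
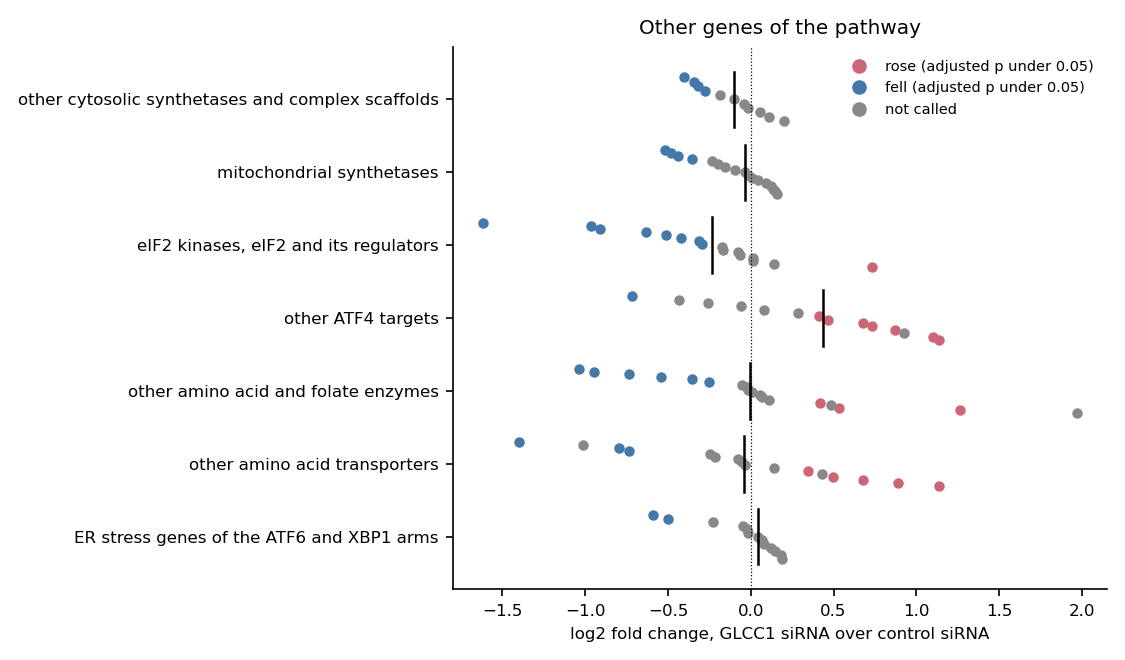
Log2 fold change of GLCC1 siRNA over control siRNA for each tested gene of 7 further lists of the pathway, with a black line at the median of each list and colours for the call at an adjusted p under 0.05. The other ATF4 targets have their median at 0.44, the eIF2 genes at -0.23, and the other lists lie near 0.

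To compare levels between genes, CPM were divided by the length in kilobases of the canonical transcript (GENCODE 44 on hg19), which 41 members have. On this per-length scale ATF4 was highest in the controls, at 226 ± 6.77 CPM per kilobase (SD, n = 3), and did not differ from SHMT2 at 222 ± 6.67 beyond this spread. SLC3A2 followed at 131 ± 3.15, NARS at 118 ± 7.05 and SLC7A5 at 113 ± 4.60, of which the last 2 overlapped within their SD. After GLCC1 siRNA, ATF4 was at 325 ± 11.5 and SHMT2 at 214 ± 27.5 CPM per kilobase, so they no longer lay together. TRIB3 was at 24.5 ± 2.54 and CHAC1 at 6.87 ± 1.05 CPM per kilobase in the controls, and at 54.6 ± 8.87 and 3.76 ± 0.67 after GLCC1 siRNA. NUPR1, VLDLR, CBS, ALDH1L2 and STC2 were under 1 CPM per kilobase in the controls.

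The cells had the markers of colon epithelium. All 8 epithelial and colon markers were detected. Their summed level fell from 5550 to 6073 CPM in the controls to 2210 to 2615 CPM after GLCC1 siRNA. Most of the control sum was KRT8, which went from 3584 to 1177 CPM. In all, 6 of 8 fell, or 75%, KRT8 and KRT18 among them, beside 29.8% of all genes at 10 CPM or more. CDX2 (log2 fold change -0.24, edgeR adjusted p = 0.0547) and VIL1 (0.21, adjusted p = 0.0665) were not called. For VIL1 all 3 GLCC1 siRNA libraries were above the controls. Of 8 markers of other cell types, PTPRC, PECAM1, CDH5 and DCN were at 0 in every library, CD68, CD3E and COL3A1 were near 0, and COL1A1 fell from 13.4 ± 1.59 to 7.38 ± 0.64 CPM, so that their summed level was 11.8 to 15.04 CPM in the controls and 6.68 to 8.28 CPM after GLCC1 siRNA. The part of this change of epithelial genes in the values above was not tested. The samples were of a cultured line, and fewer cells with an RNA and less of that RNA per cell cannot be told apart in such libraries.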

How the data were processed

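Paired-end RNA libraries of 6 samples, 3 per condition, were made with an Illumina kit that keeps no strand. The authors deposited raw counts per gene symbol, whole numbers without normalization, made by mapping to hg19 with TopHat2 2.0.11 (submitters' processing notes) and counting with HTSeq in union mode, which drops reads shared by overlapping genes. Of the members, 21 share exon bases with another annotated gene, 18 of them with a gene on the opposite strand. HTSeq tallies of reads without a gene were removed from the library sizes.

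Libraries were grouped by title. A gene was tested if its counts in at least 1 condition added up to 5 or more. Counts were scaled by TMM (factors 0.950 to 1.05) and compared with the robust quasi-likelihood test of edgeR 4.0.16 in R 4.3.3, with Benjamini-Hochberg adjustment over all 23074 genes. Standard errors were derived from the F statistic. The procedure was run on simulated counts in which 200 genes were changed, whereas 7293 genes were called in the data. That run checks the working of the procedure and not the choice of scaling. The total of 11948790 to 19042516 counts per library sets the precision, so that the standard error was 0.07 (log2) for ATF4 at 391 CPM and 0.29 for ALDH1L2 at 1.74 CPM.

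The members and all gene lists were chosen with earlier results of these data known. Every member is named. Values in each library are given for ATF4, ATF3, DDIT3, TRIB3, CHAC1, ASNS, SLC7A11 and for members among the 5 largest rises and falls with an adjusted p under 0.05 and a mean of at least 1 CPM. Of the other lists, the cell type markers apart, at most the 2 largest called rises and falls with a mean of at least 10 CPM are named. Genes of the eIF2 list marked above as outside this rule are the exception. SDs are over libraries.

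Alternatives were DESeq2 1.42.0, its size factors in edgeR, library totals only, a block for the replicate number, filters of 10 counts in every library and of 1 count in any, and each library left out. Positions come from GENCODE 44 on hg19 and promoters from RefSeq on GRCh38.p14. The renamed synthetase symbols were matched through RefSeq synonyms. Promoters of NUPR1, PSPH, PYCR1, GPT2, SHMT2, ALDH1L2, SLC7A11, LARS and YARS were not used here.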

Additional observations from a re-analysis of the deposited data

How the results depend on the processing

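The count of members that rose was 13 and lay between 11 and 16 under DESeq2, other scaling, other filters and the replicate block, and between 10 and 16 when a library was left out. The count of members that fell was 11, lay between 10 and 11 under the same alternatives and between 9 and 12 without a library. Of the 13 rises, 10 kept their call under all 12 alternatives, and of the 11 falls, 9. With library totals as the only scaling the median log2 fold change of all genes moved from 0.03 to 0.15, and the share of rises among all called genes from 47.0% to 62.9%. PYCR1 (0.0028), SHMT2 (0.0716), MTHFD2 (0.0444), SLC3A2 (0.0641) and MARS (0.0206), none of them called, then changed sign. When a library was left out, sign changes occurred in members that were not called: ATF3 (-0.0117 to 0.3242), CEBPB (-0.229 to 0.1897), DDIT4 (-0.0461 to 0.3366), PYCR1 (-0.1975 to 0.0125), SHMT2 (-0.1388 to 0.0468), SLC3A2 (-0.1186 to 0.0461) and TARS (-0.0473 to 0.1613). The causes were not tested. Without GLCC1 siRNA replicate 2, 9920 genes of the whole table were called in place of 7293. The replicate numbers did not pair the libraries: deviations of same-numbered libraries correlated at -0.179, -0.323 and -0.013 over 14875 genes, and 0 of 6 libraries correlated best with their own number. With the replicate block 11 members rose and 11 fell, as CTH (adjusted p = 0.0535) and SARS (0.127) lost their call. For genes near 0, such as STC2 and CBS, depth limits what can be seen.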
